A study of Rattus norvegicus with 12 samples.

Results

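Transcripts of 9 genes of extracellular matrix turnover were followed through 12 RNA-seq libraries of rat bone marrow cells: the ADAMTS proteases Adamts1, Adamts2, Adamts4, Adamts5, Adamts9 and Adamts12, and the tissue inhibitors of metalloproteinases Timp1, Timp2 and Timp3. They were chosen by gene symbol, 6 proteases and 3 inhibitors, with earlier results of these data known. All 9 were among the 17571 genes present in both deposited tables, of 20400 genes in the 2 tables together. All cells came from wild-type rat bone marrow and were held in chondrogenic induction medium, and each of the 4 groups had 3 libraries. In BMSC-CT, bone marrow mesenchymal stem cells (BMSCs) were given CTGF (connective tissue growth factor) during 1 week and TGF-β1 after it, and BMSC-C was their control. BF-D received docetaxel, a drug that stabilizes microtubules, and BF-C was its control. The BF samples are labelled as fibrotic BMSCs, and the series design calls them induced fibrotic chondrocytes. The docetaxel dose and time, and the way in which the BF cells were made, are not stated in the labels. Nothing in the labels ties replicates to separate cultures or animals, so p-values measure the spread between these libraries only.

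ADAMTS enzymes are secreted metalloproteinases that cut matrix proteins. ADAMTS4 and ADAMTS5 are the main aggrecan-cutting enzymes of cartilage, ADAMTS1 and ADAMTS9 cut versican and other proteoglycans, ADAMTS2 removes the amino-terminal propeptide of fibrillar procollagens, and ADAMTS12 cuts cartilage oligomeric matrix protein. TIMPs bind the active site of metalloproteinases: TIMP1 and TIMP2 act mainly on matrix metalloproteinases (MMPs), while TIMP3 is held in the matrix and also blocks ADAMTS4 and ADAMTS5. In cartilage, the balance of these enzymes and inhibitors is known to set the rate of aggrecan loss.

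The libraries held between 15580310 and 19870047 reads. One library per comparison stood apart. In BMSC-CT replicate 3 ribosomal protein genes took 13.3% of reads, where no other BMSC library exceeded 5.76%, and 14621 genes were detected, where every other BMSC library had at least 16100. Its deviation from the other BMSC-CT libraries fell with gene length (Spearman rho -0.40 across genes, which are not independent replicates). BF-D replicate 2 showed the same relation more weakly in the BF table (rho -0.36), with a ribosomal protein share of 2.57%, where the others reached 1.65% at most. The ADAMTS genes are long, 3180 to 8600 bases, and the TIMP genes are short, 740 to 1748 bases, so results are given with and without these libraries. The summed level of 8 mesenchymal stem cell markers was 534 to 1027 RPM (reads scaled to equal library totals) in BMSC-CT, 2502 to 2773 in BMSC-C, 4314 to 4824 in BF-D and 5100 to 5140 in BF-C. Summed levels of 10 macrophage markers were 9475 to 12833 RPM in BMSC-CT and 8235 to 9857 in BMSC-C, against 55.4 to 61.9 in BF-D and 40.1 to 43.2 in BF-C. Cd163 was not in the BF table, so the BF sums cover 9 of them. Between the BMSC groups these macrophage markers split: Lyz2, Cd68, Csf1r and Tyrobp lay above BMSC-C in every BMSC-CT library, Adgre1, Mrc1, Cd14, Ptprc and Cd163 lay below, and Itgam overlapped. Lyz2 made up most of the BMSC-CT sum, at 6894 to 9299 RPM in BMSC-CT and 3796 to 4541 in BMSC-C, while Adgre1 had 356 to 1267 RPM in BMSC-CT and 2866 to 3393 in BMSC-C. Of the mesenchymal markers 6 were below BMSC-C in every BMSC-CT library, Eng was above and Lepr overlapped. The chondrocyte markers summed to between 1.68 and 9.43 RPM in every library, with Col2a1 absent from the BMSC table and Acan from the BF table. Col9a1 and Matn3 were at 0 in BMSC-CT, and had at most 3 and 4 reads in a BMSC-C library. In the BF libraries the chondrocyte markers summed to 6.95 to 9.43 RPM, so the chondrocyte name given to these cells was not borne out by these transcripts. In every BMSC library the macrophage sum was above the mesenchymal sum, and in every BF library it was below. The name BMSC is therefore used here as the label of the samples only, and the make-up of the cells was not tested.

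After CTGF and TGF-β1, Adamts1, Adamts9, Adamts12 and Timp1 were lower than in control BMSCs. By limma on log2(normalized count + 1), with Benjamini-Hochberg adjustment over the 16818 genes tested and a threshold of 0.05, 4 of the 9 genes were lower in BMSC-CT and 0 were higher. At an unadjusted p under 0.05, 5 were lower and 2 higher, with no share of all genes at that threshold to set beside them. At the adjusted threshold, 10.9% of all genes tested were called lower and 7.7% higher. The counts among the 9 genes were the same by edgeR, where 9.51% of all genes were called lower and 8.05% higher. The median log2 fold change was -2.18 over the 9 genes and -0.15 over all genes tested. As the 9 genes were chosen with earlier results known, these counts and medians are a description and no test of the set. In these bulk libraries, fewer cells of a type and less RNA per cell cannot be told apart, and the part of the change in mesenchymal and macrophage markers was not tested.

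**Figure D1:**
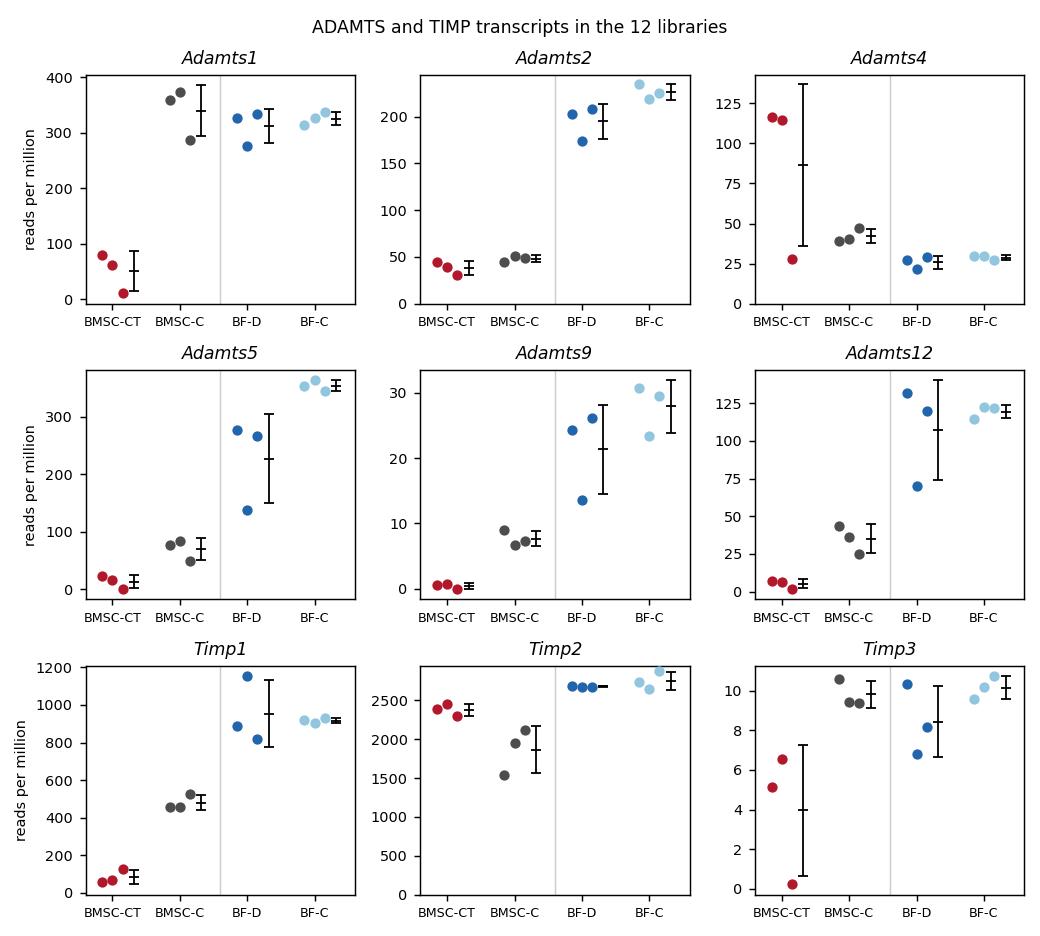
RPM of each of the 9 genes in the 12 libraries, 1 point per library in replicate order, with the mean and SD of the 3 libraries beside the points; the grey line divides the 2 tables. Adamts1, Adamts5, Adamts9, Adamts12, Timp1 and Timp3 sit lower in BMSC-CT than in BMSC-C, and BMSC-CT replicate 3 is the lowest of its group for 8 of the 9 genes in the plot.

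Among the proteoglycan-cutting enzymes, Adamts1 had 1273, 1066 and 296 normalized counts in BMSC-CT replicates 1, 2 and 3, against 5223, 5392 and 4380 in BMSC-C. The groups did not overlap, and replicate 3 was the lowest of the treated libraries. The log2 fold change was -2.75 (SE 0.545, limma adjusted p = 0.0198), or -2.09 without BMSC-CT replicate 3 (adjusted p = 2.97e-05). Adamts9 had 8.14, 13.7 and 0 normalized counts in BMSC-CT, against 130, 96.4 and 112 in BMSC-C. These are 9, 13 and 0 reads in BMSC-CT, and the count of 0 allows up to 3 reads. The log2 fold change of Adamts9 was -4.46 (SE 0.999, limma adjusted p = 0.0281), or -3.28 without that library (adjusted p = 0.000152).

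Adamts12, the enzyme that cuts cartilage oligomeric matrix protein, had 116, 109 and 49.9 normalized counts in BMSC-CT, against 638, 524 and 375 in BMSC-C. All treated libraries were below all controls, with a log2 fold change of -2.53 (SE 0.408, limma adjusted p = 0.0103), and -2.15 with BMSC-CT replicate 3 left out (adjusted p = 0.000261). Adamts2, the procollagen N-proteinase, had 710, 684 and 849 normalized counts in BMSC-CT, against 646, 740 and 741 in BMSC-C. The groups overlapped, and the log2 fold change was 0.07 (SE 0.195, limma adjusted p = 0.797). Its value depended on the processing, with a log2 fold change of -0.35 with total-read scaling and 0.86 with the gene length trend removed (limma adjusted p = 0.191), and it was not called under any alternative.

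The aggrecanases Adamts4 and Adamts5 had opposite directions, although neither passed the test with all libraries. Adamts4 had 1866, 1985 and 783 normalized counts in BMSC-CT, against 574, 585 and 722 in BMSC-C. Replicates 1 and 2 were far above the controls and replicate 3 was just above them. The log2 fold change was 1.19 (SE 0.386, limma adjusted p = 0.0739), and it was 1.62 without BMSC-CT replicate 3 (adjusted p = 0.00011). Adamts5 had 371, 271 and 17.7 normalized counts in BMSC-CT, against 1115, 1221 and 744 in BMSC-C. The third treated library held 11 reads of it. The log2 fold change was -3.02 (SE 1.10, limma adjusted p = 0.0959), and -1.66 without that library (adjusted p = 0.00109). DESeq2 with all libraries called 5 of the 9 genes lower, Adamts5 among them, and 2 higher, Adamts4 and Timp2, where it called 16.4% of all genes lower and 16.3% higher. In the authors' deposited table the adjusted p was 0.0128 for Adamts4 and 0.0362 for Adamts5. In RPM, the Adamts4 groups overlapped.

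As a ratio of levels per gene length, Adamts4 to Adamts5 was 2.84, 4.13 and 24.9 in BMSC-CT, against 0.290, 0.270 and 0.547 in BMSC-C. The ratio was chosen after the values were seen and is given as a description only. Adamts4 was thus the more abundant aggrecanase transcript in each treated library and Adamts5 in each control.

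Of the inhibitors, Timp1 had 920, 1147 and 3598 normalized counts in BMSC-CT, against 6657, 6596 and 8032 in BMSC-C. Here replicate 3 was the highest treated library, as it was for Adamts2, while it was the lowest for the other ADAMTS genes. The log2 fold change was -2.18 (SE 0.508, limma adjusted p = 0.0319), and -2.78 if that library is left out (adjusted p = 8.28e-06). Timp2 had 38199, 42243 and 63902 normalized counts in BMSC-CT, against 22343, 28056 and 32262 in BMSC-C. The groups did not overlap, with a log2 fold change of 0.78 (SE 0.299, limma adjusted p = 0.107) that did not pass the test. Its size depended on the scaling, at 0.18 with quantile normalization and 0.36 with total-read scaling, and reached 0.93 without BMSC-CT replicate 1. In RPM, Timp2 was at 2388, 2445 and 2296 in BMSC-CT, where replicate 3 was the lowest, against 1534, 1945 and 2118 in BMSC-C. Timp3 had 82.3, 113 and 6.44 normalized counts in BMSC-CT, against 154, 136 and 143 in BMSC-C. The third treated library held 4 Timp3 reads, and the log2 fold change was -1.81 (SE 1.01, limma adjusted p = 0.221), or -0.58 without it (adjusted p = 0.0675). Timp3 lies within Syn3 on the opposite strand, which had 1 to 10 reads in these libraries, and whether reads were counted by strand is not stated in the sources used here, so reads of the 2 genes may be mixed where they are few.

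**Figure D2:**
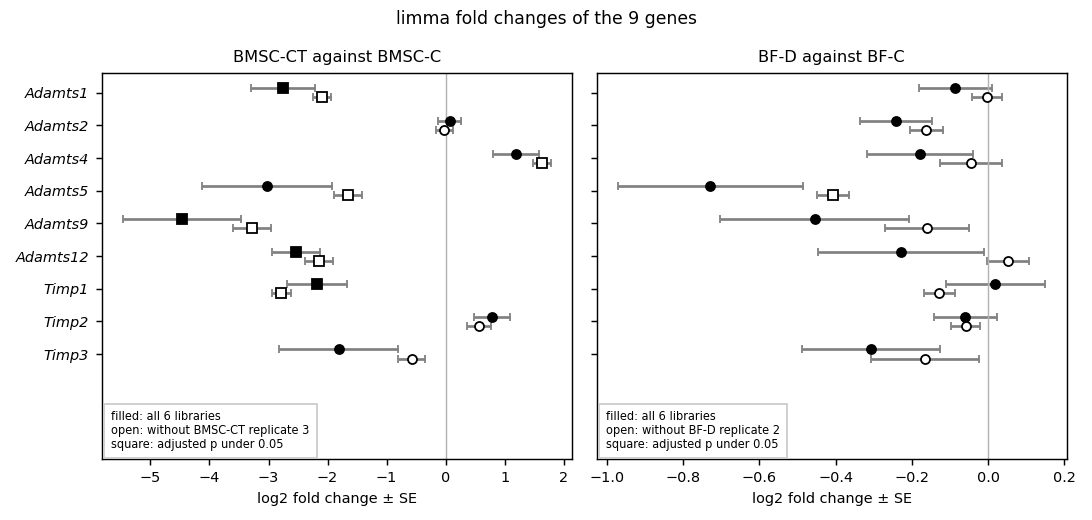
Log2 fold change with its SE for each of the 9 genes (limma), BMSC-CT against BMSC-C on the left and BF-D against BF-C on the right; filled points use all 6 libraries of a table, open points leave out BMSC-CT replicate 3 or BF-D replicate 2, and squares have an adjusted p under 0.05. Without BMSC-CT replicate 3, Adamts4 is called higher and 5 genes are called lower, and Adamts5 is the one gene called lower in BF-D without replicate 2.

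The groups did not overlap for 8 of the 9 genes in normalized counts, where 52.2% of all genes tested did not overlap. Without BMSC-CT replicate 3 the calls were 1 higher and 5 lower, where 19.5% and 23.5% of all genes were called higher and lower. The calls rested on the control libraries too. Without BMSC-C replicates 1, 2 and 3 in turn, 0, 0 and 1 of the 9 genes were called lower, the last being Adamts12 (adjusted p = 0.0366). Calls fell over all genes too, to 3.08%, 2.9% and 4.73% called lower in the same order. In that order the log2 fold changes were -2.72, -2.69 and -2.84 for Adamts1, and -4.35, -4.57 and -4.46 for Adamts9. They were -2.36, -2.50 and -2.74 for Adamts12, and -2.22, -2.23 and -2.09 for Timp1. The Timp1 call was also lost without BMSC-CT replicate 1 (adjusted p = 0.052) or replicate 2 (adjusted p = 0.1), where 12.8% and 4.93% of all genes were called lower.

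The promoters of 4 of these genes are shown because their transcripts differed in direction: Adamts1 and Timp1 were called lower in BMSC-CT, and Adamts4 and Timp2 lay above the control in normalized counts without passing the test. RefSeq (build GRCr8) gave sequence for 8 of the 9 genes, all but Adamts5. Each run is the 250 bases before the gene start, read 5′ to 3′ on the gene's strand. Capitals mark matches, on either strand, to an AP-1, STAT, TEAD, GC box or TATA motif, whose letters are given with their counts. They lie at chr11:38427385-38427634 (Adamts1, minus strand), chr13:86202761-86203010 (Adamts4, plus strand), chrX:3771123-3771372 (Timp1, minus strand) and chr10:104089215-104089464 (Timp2, minus strand).
Adamts1: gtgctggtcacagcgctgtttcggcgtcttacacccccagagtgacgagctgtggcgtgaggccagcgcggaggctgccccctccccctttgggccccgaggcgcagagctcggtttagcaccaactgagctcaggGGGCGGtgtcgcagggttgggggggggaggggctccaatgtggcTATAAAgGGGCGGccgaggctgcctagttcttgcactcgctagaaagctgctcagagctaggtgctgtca
Adamts4: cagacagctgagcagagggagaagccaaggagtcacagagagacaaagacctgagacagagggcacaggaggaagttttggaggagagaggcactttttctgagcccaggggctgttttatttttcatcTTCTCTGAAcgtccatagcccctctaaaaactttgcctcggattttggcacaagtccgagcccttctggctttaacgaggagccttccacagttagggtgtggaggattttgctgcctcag
Timp1: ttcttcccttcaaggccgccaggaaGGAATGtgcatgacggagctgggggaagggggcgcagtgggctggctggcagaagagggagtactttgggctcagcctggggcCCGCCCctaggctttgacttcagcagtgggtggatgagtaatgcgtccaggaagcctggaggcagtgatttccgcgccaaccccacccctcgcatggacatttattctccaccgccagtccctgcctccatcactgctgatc
Timp2: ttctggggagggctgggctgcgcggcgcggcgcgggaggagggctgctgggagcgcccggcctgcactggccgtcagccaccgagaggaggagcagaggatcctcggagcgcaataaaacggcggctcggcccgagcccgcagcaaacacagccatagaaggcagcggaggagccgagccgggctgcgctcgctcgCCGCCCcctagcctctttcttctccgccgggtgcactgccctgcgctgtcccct
A GC box, GGGCGG, was found in 6 of the 8 promoters, against 30.47% of 33469 promoters of the same length, and Adamts4 and Adamts12 had none. Adamts1 alone of the 8 had the TATA motif, TATAAA, at bases -70 to -65, next to but not overlapping a GC box at -63 to -58, and 12.93% of all promoters held one. Adamts4 alone of the 8 held the STAT letters TTCNNNGAA, at bases -121 to -113, as did 7.667% of all promoters. Timp1 alone held the TEAD letters GGAATG, at bases -225 to -220, as did 12.06% of all promoters. The AP-1 letters TGANTCA were in 0 of the 8, and in 6.34% of all promoters. Only the letters given were searched, with N for any base, so variant forms of a motif were not marked or counted. These matches are letters in a window and no measure of binding. Adamts1 and Adamts5 are next to each other on chromosome 11 among protein-coding genes of that annotation, and both had negative fold changes in BMSC-CT.

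With docetaxel, no gene of the 9 passed the test. By limma, 0 of the 9 were called in either direction in BF-D against BF-C, where 0.0117% of 17076 genes were called. At an unadjusted p under 0.05, 0 were higher and 2 lower, again with no share of all genes to set beside them. Both edgeR and DESeq2 also called 0 of the 9, where DESeq2 called 0.422% of all genes. All 6 ADAMTS genes had a negative fold change, with a median of -0.24 on the log2 scale, although Adamts1 and Adamts12 were at 0.025 and 0.036 with the length trend removed, where the median was -0.026. Without BF-D replicate 2 the median was -0.10 and Adamts12 was at 0.052. The 3 TIMP genes had a median of -0.06. The median over all genes was -0.0044.

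Adamts5 had the largest fold change of the 9 genes. It had 4582, 2288 and 4378 normalized counts in BF-D replicates 1, 2 and 3, against 5956, 6107 and 5747 in BF-C. All docetaxel libraries were below all controls, and replicate 2 was the lowest. The log2 fold change was -0.73 (SE 0.242, limma unadjusted p = 0.0173, adjusted p = 0.706). Without BF-D replicate 2, the smaller fold change of -0.41 passed the test (adjusted p = 0.000317), where 0.811% of all genes were called lower. In the authors' deposited table, Adamts5 had a log2 fold change of -0.66 with an adjusted p of 0.446. Adamts2 was the only other gene of the 9 whose groups did not overlap, as for 16.8% of all genes, with 3372, 2877 and 3413 normalized counts in BF-D, against 3954, 3675 and 3764 in BF-C. Its log2 fold change was -0.24 (limma adjusted p = 0.706).

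The other 7 genes had overlapping groups. Adamts1 averaged 5158 ± 501 normalized counts in BF-D and 5461 ± 175 in BF-C (SD, n = 3 each), with a log2 fold change of -0.09 (limma adjusted p = 0.768). Adamts4 averaged 429 ± 66.1 normalized counts in BF-D and 482 ± 27.4 in BF-C. Adamts12 had 2185, 1156 and 1972 normalized counts in BF-D, against 1926, 2057 and 2028 in BF-C, so that replicates 1 and 2 lay on opposite sides of the controls. Adamts9 had 402, 225 and 429 in BF-D, against 518, 393 and 493 in BF-C. For both genes BF-D replicate 2 was the lowest library of its group, as it was for every ADAMTS gene here.

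Timp1 had 14689, 19095 and 13468 normalized counts in BF-D, against 15452, 15181 and 15488 in BF-C. Replicate 2 was above all controls and replicates 1 and 3 were below all controls. Its log2 fold change was 0.02 (limma adjusted p = 0.965), and its sign turned without that library (-0.13). Timp2 averaged 44206 ± 347 normalized counts in BF-D and 46104 ± 1778 in BF-C. Timp3 had 171, 112 and 134 in BF-D, against 161, 171 and 179 in BF-C, with a log2 fold change of -0.31 (limma adjusted p = 0.706).

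The authors' deposited enrichment table for docetaxel lists the term metallopeptidase activity with 15 genes, 9 higher and 6 lower, at an adjusted p of 0.00804. Adamts2 and Adamts5 are among its lower genes. Of those 15 genes, 4 in the authors' deposited table have an adjusted p under 0.05, and neither of these proteases is one of them.

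**Figure D3:**
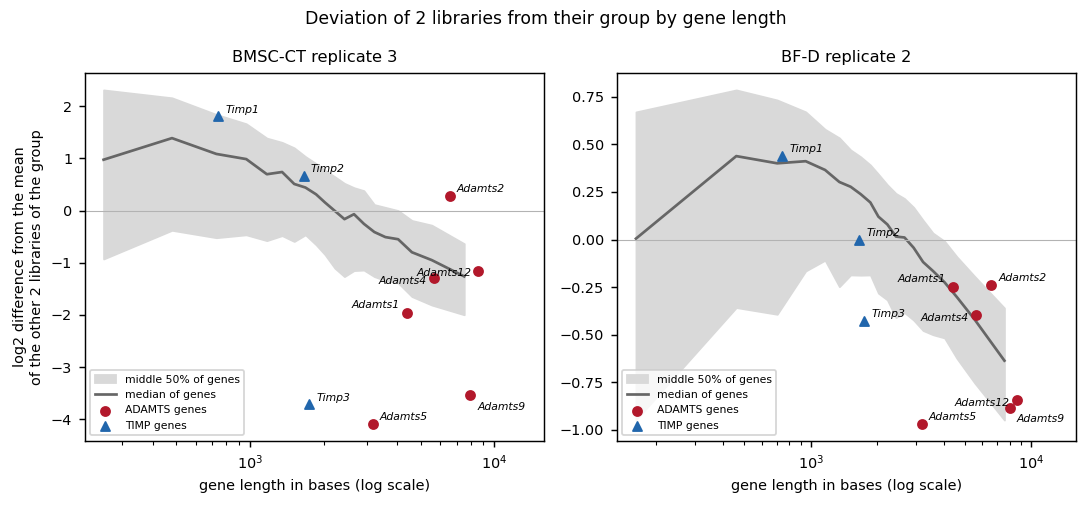
Log2 difference of BMSC-CT replicate 3 (left) and BF-D replicate 2 (right) from the mean of the other 2 libraries of their group, against gene length in bases on a log scale; the line is the median and the band the middle 50% of all genes. In BMSC-CT replicate 3, Timp1, Timp2, Adamts4 and Adamts12 lie within or at the edge of the band, Adamts2 lies above it, and Adamts5, Timp3, Adamts9 and Adamts1 lie below it.

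The trend with gene length can be set beside the values of the 9 genes. In BMSC-CT replicate 3, Adamts5 was -4.09 on the log2 scale from its mates where the trend at its length was -0.43, and Timp3 was -3.71 where the trend was 0.30. Adamts9 was -3.54 against a trend of -1.28, and Adamts1 was -1.97 against -0.77. Timp1 was 1.81 above its mates where the trend was 0.96, and Adamts2 was 0.28 above where the trend was -1.13. In BF-D replicate 2, Adamts5 was -0.97 from its mates where the trend was -0.14, Timp3 was -0.43 where it was 0.17, and Timp1 was 0.44 where it was 0.36. Adamts9 was -0.88 from its mates in BF-D replicate 2, where the trend was -0.65. In both libraries Adamts5, Timp3 and Adamts9 were thus further below their mates than the trend at their length. With the trend removed from each library, Adamts4 was called higher in BMSC-CT at a log2 fold change of 1.90 (limma adjusted p = 0.00239), as were 12.5% of all genes.

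**Figure D4:**
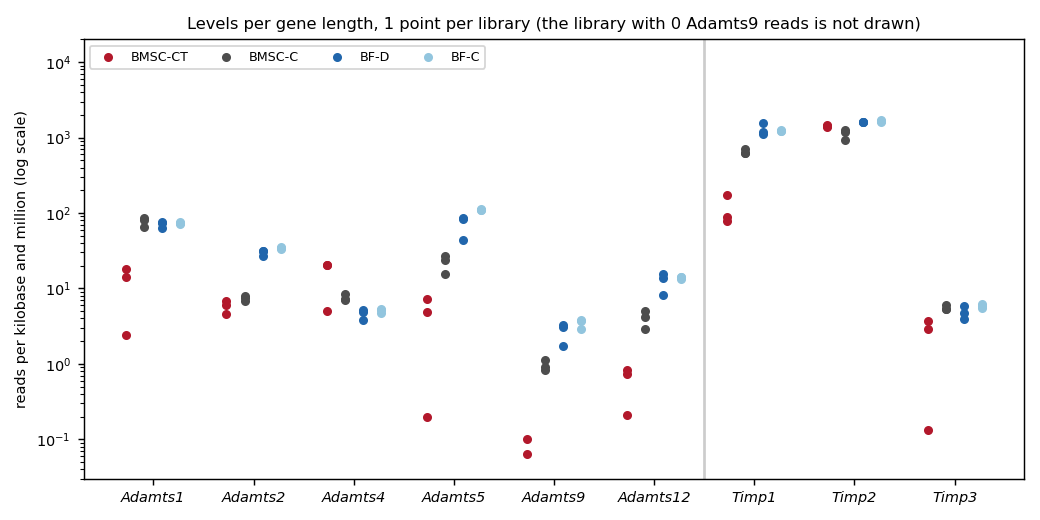
RPKM (reads scaled to gene length and library total) of each gene on a log scale, 1 point per library, coloured by group; the BMSC-CT library with 0 Adamts9 reads is not drawn. Timp2 and Timp1 stand above all ADAMTS genes in every group, and Timp3 lies among the ADAMTS genes.

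Per gene length, Timp2 was the highest of the 9 genes in every group. It averaged 1430.5 ± 45.4 RPKM (RPM per kilobase of gene; SD, n = 3) in BMSC-CT, 1123 ± 181 in BMSC-C, 1611 ± 5.68 in BF-D and 1655 ± 71.8 in BF-C. Timp1 was second in each group, and Adamts9 was last. In BMSC-CT the next in order were Adamts4 at 15.4 RPKM, Adamts1 at 11.5, Adamts2 at 5.82, Adamts5 at 4.14 and Timp3 at 2.27, and each overlapped its neighbour. In BMSC-C they were Adamts1 at 77.3 RPKM and Adamts5 at 22.02, each apart from its neighbours, and then Adamts4 at 7.53 and Adamts2 at 7.34, which overlapped. In BF-C Adamts5 led the proteases at 111 RPKM, apart from Adamts1 at 74.0, while in BF-D the 2 overlapped at 71.4 and 71.0 RPKM.

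Timp3, the TIMP that blocks the aggrecanases, averaged 2.27 RPKM in BMSC-CT, 5.61 in BMSC-C, 4.82 in BF-D and 5.81 in BF-C. Its ratio to Adamts5 per length was 0.404, 0.757 and 0.662 in BMSC-CT, against 0.252, 0.203 and 0.349 in BMSC-C. The groups did not overlap, with a log2 difference of 1.17 (two-sided exact permutation p = 0.1, the smallest that 3 against 3 libraries can give). In BF-D it was 0.0680, 0.0894 and 0.0557, against 0.0492, 0.0509 and 0.0566 in BF-C, which overlapped (log2 difference 0.42, exact permutation p = 0.2). The ratio of Timp3 to Adamts4 was 0.142, 0.183 and 0.0265 in BMSC-CT, against 0.868, 0.751 and 0.639 in BMSC-C. Its log2 difference was -3.08 (exact permutation p = 0.1), and -0.13 in BF-D against BF-C (exact permutation p = 0.4). The 2 ratios thus moved in opposite directions: relative to the controls, Timp3 transcripts were higher per Adamts5 transcript and lower per Adamts4 transcript in BMSC-CT. In every BMSC library Timp3 was below both aggrecanases per length. BMSC-CT replicate 3 held only 4 Timp3 reads and 11 Adamts5 reads.

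The BMSC and BF tables were scaled separately, so their levels are set side by side in RPM with no test. Adamts5 averaged 13.2 RPM in BMSC-CT, 70.0 in BMSC-C, 227 in BF-D and 354 in BF-C, and the ranges of the 4 groups did not overlap. Adamts2 averaged 38.1 RPM in BMSC-CT, 48.1 in BMSC-C, 195 in BF-D and 226 in BF-C, with the BMSC groups overlapping. Adamts12 averaged 5.11 RPM in BMSC-CT, 34.9 in BMSC-C, 107 in BF-D and 119 in BF-C. Adamts4 averaged 86.6 RPM in BMSC-CT, 42.4 in BMSC-C, 26.0 in BF-D and 28.7 in BF-C, and its groups overlapped within each table. BMSC-C lay above both BF groups, while BMSC-CT replicate 3, at 28.1 RPM, lay within their range. For Adamts1, BMSC-C at 340, BF-D at 312 and BF-C at 326 RPM overlapped, and only BMSC-CT was apart at 50.6.

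Other genes of these pathways were counted from 9 lists, also chosen with earlier results known and given as a description. They hold 95 genes, of which 79 were tested in the BMSC table. In BMSC-CT 9 were higher and 25 lower by limma, where 7.7% and 10.9% of all genes were called higher and lower. Once BMSC-CT replicate 3 was left out, 17 were higher and 34 lower, where the shares of all genes rose to 19.5% and 23.5%. Leaving out a BMSC-C library gave 5 to 6 higher and 14 to 18 lower. There 2.9% to 4.73% of all genes were called lower. Among the other ADAMTS proteases 0 of 8 were higher and 3 lower, the median log2 fold change being -0.99, and 1 to 3 were lower with each library left out. Adamts8, an enzyme with some aggrecan-cutting activity, averaged 5.60 ± 2.13 normalized counts in BMSC-CT and 262 ± 8.56 in BMSC-C (SD, n = 3 each), a log2 fold change of -5.36 (limma adjusted p = 0.000688). Adamts6 fell by 3.26 and Adamts7, which also cuts cartilage oligomeric matrix protein, fell by 1.06 on the log2 scale (limma adjusted p = 0.0269 and 0.0186). Both calls were lost without any 1 of the BMSC-C libraries, and that of Adamts7 also without BMSC-CT replicate 2 (adjusted p up to 0.123 and 0.0955).

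The ADAMTS-like proteins, which resemble the enzymes without their catalytic part, had 2 of 6 higher and 0 lower (median log2 fold change 0.95), or 1 to 3 higher with each library left out. The difference between these 2 lists was not tested. Adamtsl1 averaged 865 ± 420 normalized counts in BMSC-CT and 62.0 ± 3.35 in BMSC-C, a log2 fold change of 3.63 (limma adjusted p = 0.00401). Adamtsl5, which binds fibrillin microfibrils, rose by 1.47 on the log2 scale (limma adjusted p = 0.0101), a call lost without BMSC-C replicate 1 or 2 (adjusted p up to 0.067). Of 4 other inhibitors and clearance genes, Reck, a membrane-bound metalloproteinase inhibitor, was the 1 called: it averaged 410 ± 201 normalized counts in BMSC-CT and 4309 ± 317 in BMSC-C (log2 fold change -3.55, limma adjusted p = 0.00401). Timp4 stayed near the detection limit in both groups, at 2.08 ± 1.16 and 0.289 ± 0.5 normalized counts in BMSC-CT and BMSC-C. Lrp1, an endocytic receptor that clears ADAMTS4, ADAMTS5 and TIMP3 from the matrix, had a log2 fold change of -1.36 that did not pass (limma adjusted p = 0.0808).

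Of 8 activators and cofactors 3 were lower and 0 higher (median log2 fold change -0.55). Sdc4, a syndecan tied to ADAMTS5 activity, averaged 1677 ± 722 normalized counts in BMSC-CT and 8853 ± 1108 in BMSC-C (log2 fold change -2.47, limma adjusted p = 0.00461). Sdc1 fell by 2.05 and Fbln1, a matrix cofactor of ADAMTS1, fell by 1.59 on the log2 scale (limma adjusted p = 0.00161 and 0.00824), the Fbln1 call being lost without BMSC-C replicate 2 (adjusted p = 0.065). Among 8 tested proteoglycan substrates 4 were lower and 1 was higher (median log2 fold change -1.26). Vcan, versican, averaged 242 ± 60.0 normalized counts in BMSC-CT and 4265 ± 1009 in BMSC-C (log2 fold change -4.14, limma adjusted p = 0.000675). Fmod, fibromodulin, averaged 5326 ± 384 in BMSC-CT and 353 ± 31.98 in BMSC-C (log2 fold change 3.91, limma adjusted p = 0.000196). Among 8 procollagens and other matrix substrates 2 were higher and 3 lower (median log2 fold change -0.11). Lox, 1 of the 3 lower, kept its call with each library left out in turn (limma adjusted p up to 0.00632). Col3a1 and Col1a1, whose procollagens ADAMTS2 trims, rose by 2.99 and 2.39 on the log2 scale (limma adjusted p = 0.00127 and 0.002), beside an Adamts2 level that did not pass the test.

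Of 16 MMPs, the main targets of TIMP1 and TIMP2, 2 were higher and 5 lower (median log2 fold change -0.75), or 1 to 5 higher and 4 to 7 lower with each library left out. Mmp9, a gelatinase, averaged 2696 ± 761 normalized counts in BMSC-CT and 33214 ± 10134 in BMSC-C (log2 fold change -3.62, limma adjusted p = 0.00157). Mmp3 and Mmp10, which are near copies whose reads may be split between them, fell by 3.78 and 4.38. Of 8 ADAM sheddases 2 were higher and 0 lower (median log2 fold change -0.83), Adam15 with a log2 fold change of 1.23 and Adam33 with 1.12. Both of these calls were lost without BMSC-CT replicate 2 or any 1 of the 3 BMSC-C libraries (adjusted p up to 0.107 and 0.0907). Of 13 signals known to induce these genes 6 were lower and 0 higher (median log2 fold change -1.39), or 2 to 9 lower with each library left out. Il11, a cytokine that raises Timp1 in connective tissue cells, averaged 12.9 ± 7.27 normalized counts in BMSC-CT and 12644 ± 2132 in BMSC-C (log2 fold change -9.95, limma adjusted p = 0.000165). Il6 fell by 7.75, Il1a by 2.84 and Fos, a subunit of AP-1, by 2.37 on the log2 scale. The Il1a call was lost without any 1 of the BMSC-C libraries and the Fos call without BMSC-C replicate 1 or 2 (adjusted p up to 0.0904 and 0.0967).

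**Figure D5:**
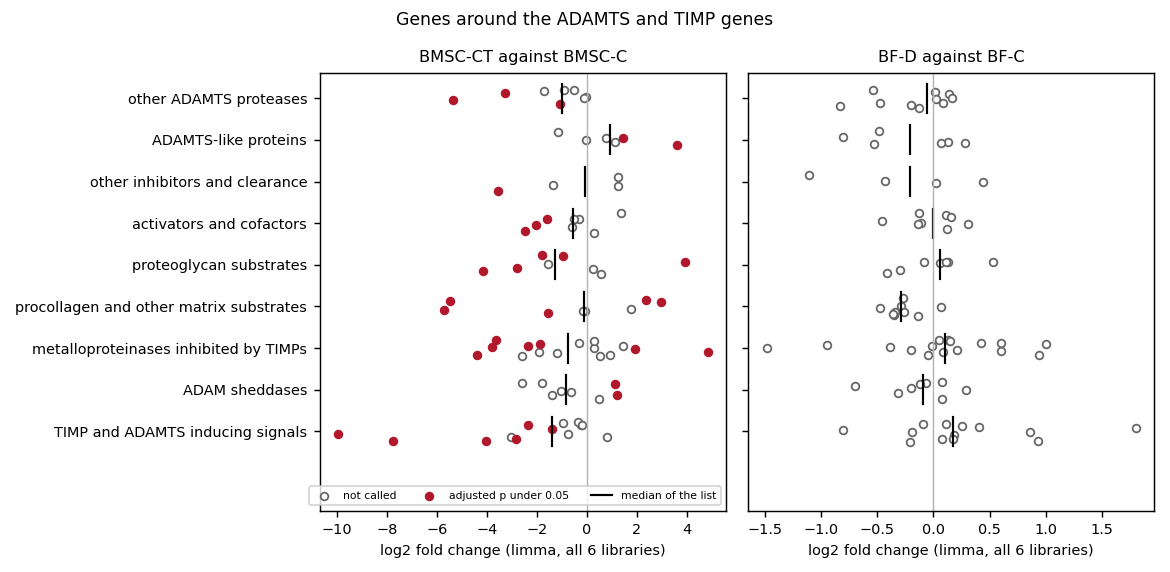
Log2 fold change (limma, all 6 libraries) of the tested genes of 9 lists, 1 point per gene and a bar at the median, for BMSC-CT against BMSC-C on the left and BF-D against BF-C on the right; filled points have an adjusted p under 0.05. On the left 9 genes are called higher and 25 lower, and on the right 0 of 81 are called.

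In BF-D 0 of 81 tested genes of the lists were called by limma or edgeR. DESeq2 called 5 higher, which were 3 MMPs and 2 inducing signals, and 2 lower, where it called 0.422% of all genes. With quality weights 6 were called higher and 3 lower, a setting in which calls over all genes rose too, as given below. Il11 had the smallest p among them, with 8468 ± 892 normalized counts in BF-D and 4654 ± 199 in BF-C (SD, n = 3 each; log2 fold change 0.86, limma adjusted p = 0.145). Mmp12 had a log2 fold change of 1.00, Mmp13, the main collagenase of cartilage, 0.61, and Mmp9 0.60 (limma adjusted p = 0.23, 0.231 and 0.231). Without BF-D replicate 2, 11 of the 81 were called higher and 8 lower, where 0.729% and 0.811% of all genes were called higher and lower. These were 5 MMPs, 3 inducing signals, and 1 each of the other ADAMTS proteases, activators and proteoglycan substrates higher. Called lower were 4 procollagens and other matrix substrates, and 1 each of the ADAMTS-like proteins, activators, proteoglycan substrates and inducing signals.

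Over the 12 libraries, Lats2 and Ntn4 followed Adamts1 most closely (Pearson r of 0.998 for both, on log2(RPM + 1), among 8720 genes), Lgr4 and Gfpt1 followed Adamts5 (0.998 and 0.996), and Dnm2 and Ap3d1 followed Adamts4 (0.991 and 0.987). Mgp and Clu followed Timp1 (0.991 and 0.99), and Fam171a2 and Anapc2 followed Timp2 (0.963 and 0.949). For Adamts2 they were S1pr1 and Rspo4, for Adamts9 Tenm3 and Ltbp2, for Adamts12 Cachd1 and Gja1, and for Timp3 Phlpp1 and Fam168a, all with r of 0.991 or more. The 12 points share the difference between the 2 tables and their library scaling, and by Spearman rank 0 of the 18 names were found again.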

How the data were processed

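RNA-seq of 4 groups of 3 rat libraries was analysed from 2 deposited gene tables, BMSC (18616 genes) and BF (19355 genes). The tools and build named by the submitters' processing notes are Bowtie 0.12.2 and mm8, a mouse build. Gene IDs in the tables are Ensembl IDs of rat, and no coordinates from the tables are printed. Per the file headers, the authors deposited normalized counts (signal values), 1 for each gene in each library. Multiplied by a constant of its library, each of them gave a whole number of reads, to a tolerance of 0.01, for 100% of values. The authors' deposited log2 fold changes and p-values are named as such where used. Levels as RPM or RPKM were computed from the recovered reads and the deposited gene lengths.

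The main test was limma 3.58.1 in R 4.3.3 (empirical Bayes with a trend) on log2(normalized count + 1) , with genes averaging under 1 left out, since the deposited unit is not raw counts. A gene is called where its p, adjusted by Benjamini-Hochberg over all genes tested, is under 0.05. Fold changes are differences of group means on this scale. The pseudocount shrinks changes of low genes, while 1 very low library weighs more than in a ratio of means: Adamts9 was -4.46 here and -3.87 by DESeq2. Beside it, edgeR 4.0.16 on the recovered reads called 1354 genes higher and 1600 lower in the BMSC table and 1 and 1 in the BF table, and DESeq2 1.42.0 called 2749 and 2755, and 37 and 35. The tests were also run on simulated data, but no outcome of that is given here, and no call rests on it. For 3 libraries against 3, the smallest exact permutation p is 0.1.

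Members and lists were chosen with earlier results of these data known. All 9 members, and from each list up to 4 genes per comparison with the smallest adjusted p, could be named. Each member's 2 most similar genes by Pearson r, among genes averaging 10 RPM or more, are named too. Symbols with several IDs were left out of the lists. Alternatives were other tools, scalings, filters and pseudocounts, quality weights per library, a replicate block, removal of the length trend, and each library left out in turn. Promoter letters come from RefSeq.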

Additional observations from a re-analysis of the deposited data

How the results depend on the processing

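Of 360 alternative values of the 9 genes' fold changes, 326 kept their direction and side of the threshold, 13 lost the threshold, 10 gained it and 11 turned sign, of which 0 were called. The cause of these changes was not tested. In BMSC-CT, the Adamts2 log2 fold change was -0.35 with total-read scaling, -0.074 with quality weights, -0.023 without BMSC-CT replicate 3 and up to 0.13 with another library left out; it was highest, 0.86, with the length trend removed. In BF-D, Adamts1 was 0.025 with the length trend removed. Adamts12 was 0.045 with quality weights, 0.036 with the trend removed and -0.41 to 0.052 with each library left out (highest without BF-D replicate 2). Timp1 was -0.018 with quantile normalization, -0.089 with quality weights, -0.10 with the trend removed and -0.13 to 0.12 with each library left out (lowest without BF-D replicate 2). Among the 9 genes in BMSC-CT, DESeq2 called 2 higher, quality weights 2 and trend removal 1, and leaving out each library gave 0 to 1 higher and 0 to 5 lower; in BF-D it gave 0 to 1 lower. Over all genes in BMSC-CT, 1295 were higher and 1839 lower. Higher calls were 2749 by DESeq2, 787 with total-read scaling, 5667 with quality weights and 2103 with the trend removed, and 249 to 3269 with each library left out; lower calls were 6690 with quality weights and 487 to 3935 with each library left out. In BF-D, 1 and 1 were called, against 37 and 35 by DESeq2, 0 and 0 by limma-voom, 2 higher with quantile normalization, 0 and 0 with a mean of at least 10, 72 and 53 with quality weights, 7 and 4 with the trend removed, and 0 to 125 and 0 to 139 with each library left out. With total-read scaling the median of all BMSC genes moved to -0.53, against -0.15. By Spearman, 0 of 18 most similar genes were shared.

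Replicate numbers are shared between groups, and same-numbered libraries deviated together with r of 0.199, -0.021 and 0.183 in the BMSC table and 0.014, 0.020 and -0.003 in the BF table. Differently numbered libraries had r of -0.225 to 0.089 in the BMSC table and -0.035 to 0.028 in the BF table. Whether same-numbered libraries share a culture is not stated in the labels and was not tested. With the replicate block, 4 of the 9 genes were lower and 0 higher in BMSC-CT, the same counts as without it. The share of all genes called in BMSC-CT with the block is not given here, so these counts have no background. In BF-D 0 and 0 of all genes were called with it.

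At these depths single reads decide Adamts9 and Timp3 in BMSC-CT replicate 3. The BMSC and BF tables cannot be tested against each other, and RNA levels do not show enzyme or inhibitor activity.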

Other observations

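Summed over genes, the TIMP transcripts exceeded the ADAMTS transcripts in every library. Per gene length, the 3 TIMP genes summed to 1518, 1566 and 1557 RPKM in BMSC-CT, against 1547, 1795 and 1993 in BMSC-C. The 6 ADAMTS genes summed to 53.7, 46.2 and 12.5 RPKM in BMSC-CT, against 126, 132 and 100.3 in BMSC-C. TIMP over ADAMTS was thus 28.3, 33.9 and 125 in BMSC-CT, against 12.3, 13.6 and 19.9 in BMSC-C, with no overlap. In BF-D the ratio was 13.1, 21.6 and 12.7, against 11.999, 11.5 and 12.4 in BF-C, and BF-D replicate 2 was the high one. Timp2 makes up most of these TIMP sums, so the ratio says little of Timp3, the inhibitor of the aggrecanases. These sums were chosen after the values were seen and were not tested.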
